A study of Rattus norvegicus with 10 samples.

Results

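The cytosolic ribosomal protein genes were examined in TDSCs, stem cells derived from rat tendon, under osteogenic induction. The members were all rows of the deposited gene table whose symbol is Rpl or Rps followed by a number. Only a letter and further digits could stand after that number. Rpsa, Rplp0, Rplp1 and Rplp2 were also members, and the ribosomal S6 kinases were left out. This rule took 167 of 23051 rows, 98 named for the large subunit and 69 for the small subunit. Rps3, the gene set as the marker of this family, had 17952 to 37063 counts per library.

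RNA was sequenced in bulk from 10 libraries, all of cells under osteogenic induction and all from day 3. In 5 control libraries no farnesol was given; their titles describe no treatment and their library names a vehicle, and which solvent they received, if any, is not known. The other 5 libraries came from cells given 50 µM farnesol, an isoprenoid alcohol. The labels call the libraries of a group biological replicates but do not say whether they came from separate animals or cultures, so every p-value here measures only the spread between these libraries, which may be technical.

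Each ribosome is built from a small subunit, which reads the mRNA, and a large subunit, which joins amino acids, and nearly all ribosomal proteins are present in a single copy per subunit. In mammals most ribosomal protein mRNAs begin with a short run of pyrimidines at the 5′ end, the TOP motif, through which mTORC1 signalling and the protein Larp1 set how much of them is translated. The genes also left many intronless copies across mammalian genomes, and reads from such a copy and from its parent gene are hard to separate.

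The 167 rows fell into 3 kinds. Of 77 standard gene symbols of the cytosolic ribosome, 68 had a row whose gene span is longer than its transcript and so holds introns: 39 of 46 for the large and 29 of 31 for the small subunit. These 68 are called the core genes below. A further 4 rows were paralogs with a function of their own (Rpl3l, Rpl7l1, Rpl22l1, Rps27l), and the remaining 95 rows were copies: 60 single-exon, 7 with a span longer than the transcript and 28 at 0 in every library, for which no length could be read. Rps18, Rpl30, Rpl36 and Rpl39 appeared only as single-exon rows on a chromosome other than the one RefSeq gives the gene, so these rows were counted among the copies. Rpl7, Rpl27a, Rpl36a, Rpl41 and Rps26 were not analysed here.

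Since the TOP motif lies at the start of the transcript, the DNA around the annotated start is shown for core genes at both ends of the range of change, for a paralog pair and for 1 copy. The windows run from 40 bases before to 15 bases after the start given by RefSeq on build GRCr8, are written 5′ to 3′ on the strand of the gene, and carry their longest run of C and T in capitals. Rps3 lies at chr1:163195762-163195816 on the minus strand, Rpl10a at chr20:6390493-6390547 on the plus strand, Rpl28 at chr1:78083518-78083572 on the minus strand and Rps28 at chr7:15311319-15311373 on the minus strand. Rpl10 lies at chrX:157205810-157205864 on the plus strand, Rps3a at chr2:173827028-173827082 on the minus strand, Rpl22 at chr5:168117921-168117975 on the plus strand, Rpl22l1 at chr2:113683156-113683210 on the plus strand and the copy Rps18l5 at chr5:118112558-118112612 on the plus strand.
Rps3: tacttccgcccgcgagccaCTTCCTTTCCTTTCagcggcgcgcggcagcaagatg
Rpl10a: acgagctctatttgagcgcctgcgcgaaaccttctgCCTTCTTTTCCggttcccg
Rpl28: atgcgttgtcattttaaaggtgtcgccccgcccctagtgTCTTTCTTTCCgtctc
Rps28: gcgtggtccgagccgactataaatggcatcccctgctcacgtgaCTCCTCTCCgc
Rpl10: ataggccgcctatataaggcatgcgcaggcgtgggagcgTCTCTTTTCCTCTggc
Rps3a: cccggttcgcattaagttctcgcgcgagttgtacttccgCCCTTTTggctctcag
Rpl22: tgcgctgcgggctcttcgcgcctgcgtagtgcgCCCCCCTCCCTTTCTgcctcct
Rpl22l1: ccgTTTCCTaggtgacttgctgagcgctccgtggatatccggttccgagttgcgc
Rps18l5: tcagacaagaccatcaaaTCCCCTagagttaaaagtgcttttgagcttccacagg

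Rpl28, which had one of the steepest changes, and Rpl10, which had the smallest change among the core genes of the large subunit, both carried a run that spans the annotated start, of 11 and 13 bases. In Rps3a the longest run was 7 bases, and in Rpl22l1 and Rps18l5 it was 6. Promoter windows matched 55 of the 68 core genes. Copies were matched by gene identifier alone, without a check of position, so some may hold the window of the parent gene. A run of at least 8 pyrimidines within 30 bases of the start, on the strand of the gene, was present in 45 of these 55 (81.8%), in 29 of 66 matched copies (43.9%) and in 23.2% of the 27457 genes with a window. The letters CCGGAAG, the core of ETS-family sites, stood on either strand of the promoter window (250 bases before to 50 after the start) in 29.1% of the core genes and in 9.22% of all genes, and AAGATGG, the core of YY1 sites, in 18.2% and 7.30%. Matches can overlap, since both motifs hold AAG and the reverse complement of CCGGAAG holds pyrimidines, and a match describes the sequence only. Core genes with and without the pyrimidine run had similar medians, at 0.50 over 45 genes and 0.53 over 10 genes on the log2 fold change scale.

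Rows with at least 10 counts in 5 or more libraries, 12942 in all, were tested by the quasi-likelihood method of edgeR. The threshold was a Benjamini-Hochberg adjusted p of 0.05 over these rows. A log2 fold change is farnesol minus control, and values after "rose by" and "fell by" are on that scale. Both words are used only for rows past the threshold. Changes were widespread: 3787 of the tested rows rose (29.3%) and 3881 fell (30%), with a median log2 fold change of 0.01. Against this background 81 of the 96 tested members rose, 1 fell and 14 did not pass, and their median log2 fold change was 0.49. All farnesol libraries lay above all control libraries in 73 members, against 19.7% of all tested rows. The other 71 members were too low to be tested, 28 of them listed at 0 in every library, so these counts describe only the members that passed the filter. In bulk RNA, a change in the number of cells of a type and a change in RNA per cell cannot be told apart.

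All 68 core genes passed the filter, and 67 rose, with a median log2 fold change of 0.51, or 1.42-fold, and a range from 0.09 to 0.83. In 65 of them the groups did not overlap. In the large subunit 39 of 39 rose with a median of 0.55, and in the small subunit 28 of 29 rose with a median of 0.48. The exception was Rps3a. These calls did not hold once the length slope of each library, described below, entered the fit as a covariate. In that fit 0 of the 68 passed in edgeR's test, and 7 were higher at an unadjusted p under 0.05. The slope runs with the treatment, so that fit can also take up part of a farnesol effect.

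**Figure D1:**
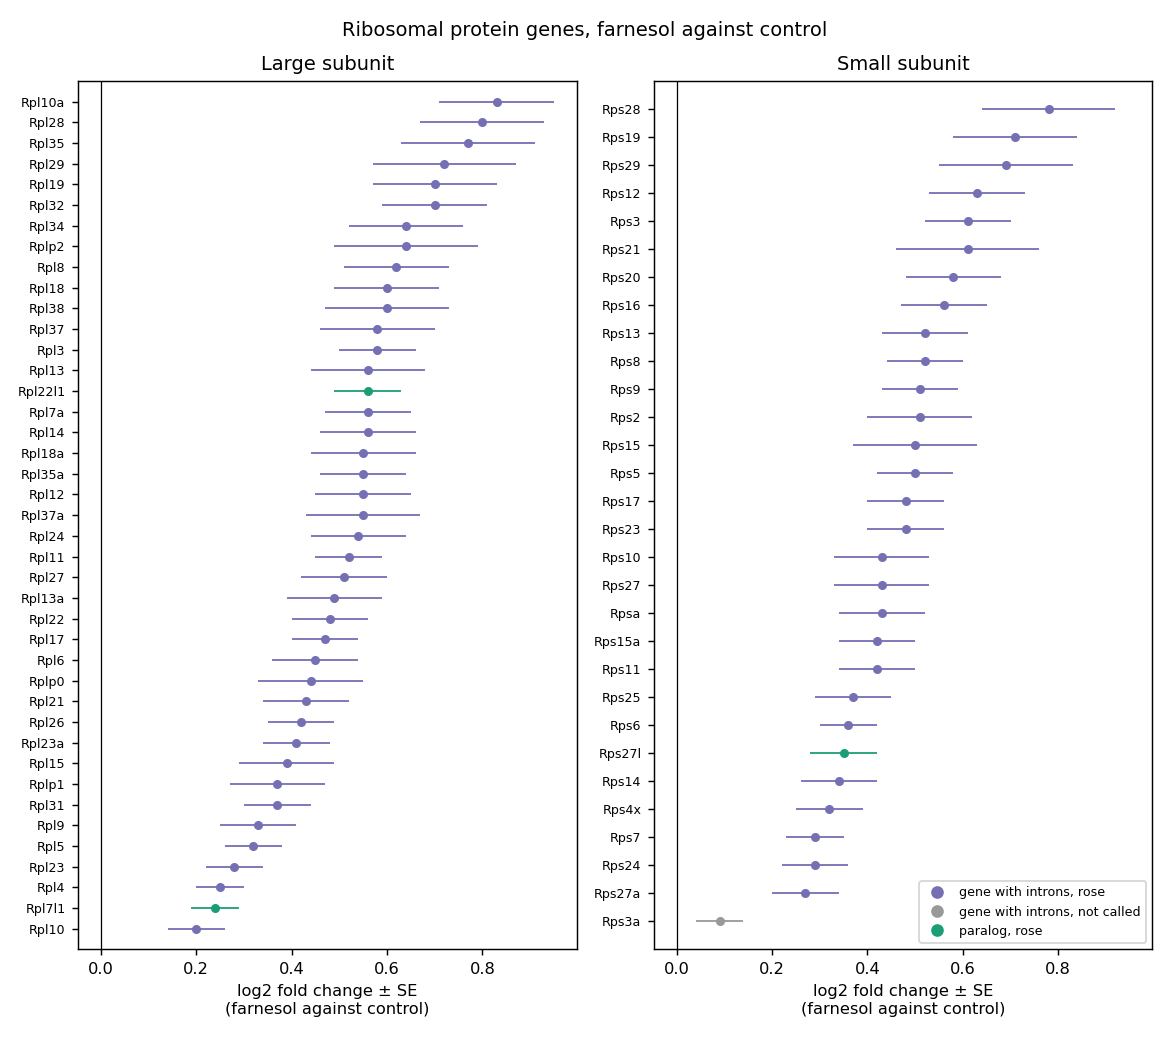
Log2 fold change (farnesol against control, x axis) with its standard error for each tested core gene and paralog, the large subunit on the left and the small subunit on the right. All points lie above 0, from 0.09 in Rps3a to 0.83 in Rpl10a, and the ranges of the subunits coincide over most of their length.

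Rps3, a protein at the entry of the mRNA channel, is annotated at chr1:153777472-153783680 on the minus strand of rn7, the build of the deposited table. Its level in CPM, counts scaled to the size of the library, was 400, 434, 509, 437 and 446 in control replicates 1 to 5 and 692, 634, 580, 658 and 837 in the farnesol replicates. Every farnesol library was above every control library, with control 3 and farnesol 3 closest to each other. The mean went from 445 ± 40.0 to 680 ± 96.5 CPM (SD, n = 5 each), and the log2 fold change was 0.61 (SE 0.09), with an adjusted p of 0.000213 in edgeR's quasi-likelihood test.

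The steepest core gene was Rpl10a, which forms the mobile L1 stalk of the large subunit and is annotated at chr20:6385823-6391357 on the plus strand of rn7. Its control libraries held 204, 234, 285, 232 and 227 CPM and its farnesol libraries 426, 387, 340, 389 and 567 CPM. The groups lay apart, and the log2 fold change was 0.83 (SE 0.12), with an adjusted p of 0.000198 in edgeR's test. Rpl28, a large-subunit protein that budding yeast lacks, went from 181 ± 20.8 to 314 ± 73.4 CPM, a log2 fold change of 0.80 (SE 0.13). Rpl35, which sits beside the exit of the peptide tunnel, went from 293 ± 40.3 to 500 ± 125 CPM, a log2 fold change of 0.77. Rpl29, a large-subunit protein, rose by 0.72, with 211 to 299 CPM in the controls and 307 to 575 CPM with farnesol, and Rpl19, also of the large subunit, by 0.70. In Rpl10a, Rpl28 and Rpl35 farnesol replicate 5 was the highest library and control replicate 3 the highest control.

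In the small subunit Rps28 changed most among the core genes. It held 48.2, 50.2, 66.7, 56.5 and 56.5 CPM in the controls and 83.4, 91.2, 79.7, 87.1 and 137 CPM with farnesol, a log2 fold change of 0.78 (SE 0.14). The groups did not overlap, though 4 of the farnesol libraries lay between 79.7 and 91.2 CPM and replicate 5 far above them. Rps19, known from Diamond-Blackfan anaemia, a disease of ribosome assembly, went from 203 ± 24.0 to 333 ± 79.9 CPM, a log2 fold change of 0.71. Rps2 and Rps20, which had high levels per length in the controls (674 ± 58.8 and 686 ± 74.6 FPKM), had log2 fold changes of 0.51 and 0.58.

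At the other end stood genes of both subunits. Rps3a, a small-subunit protein near the mRNA exit, held 777, 842, 877, 880 and 842 CPM in the controls and 903, 874, 944, 900 and 868 CPM with farnesol. The groups overlapped, since farnesol 5 and farnesol 2 lay below control 4, and the log2 fold change of 0.09 (SE 0.05) did not pass, with an adjusted p of 0.129 in edgeR's test. Rpl10, a large-subunit protein that joins late in assembly, held 603, 686, 730, 676 and 677 CPM in the controls and 789, 773, 735, 765 and 816 CPM with farnesol. Its groups lay apart by a narrow margin between control 3 and farnesol 3, and it rose by 0.20 on the log2 scale (SE 0.06, adjusted p of 0.00709 in edgeR's test). Rpl4, which lines the peptide tunnel, also rose, from 515 ± 26.0 to 611 ± 12.8 CPM, a log2 fold change of 0.25. So did Rps27a, made as a fusion with ubiquitin, with a log2 fold change of 0.27, and Rps24 and Rps7, both with 0.29.

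**Figure D2:**
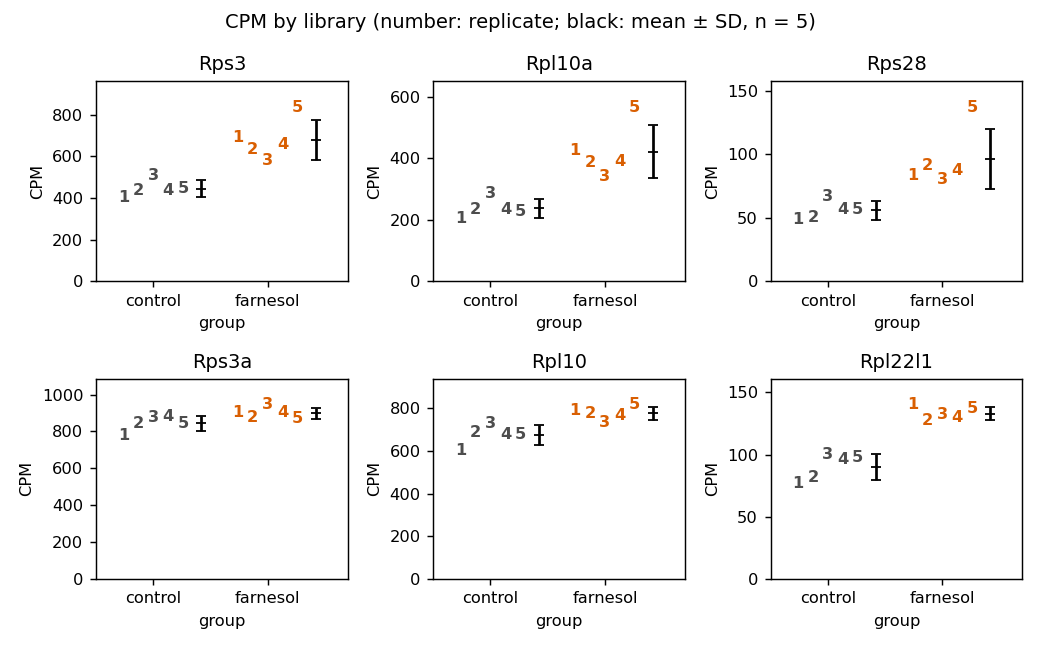
CPM in each library (y axis, from 0) of 6 ribosomal protein genes by group (x axis), the numbers standing for replicates and the black bars for mean ± SD (n = 5). Rps3, Rpl10a and Rps28 show farnesol replicate 5 highest, whereas in Rps3a the groups overlap and in Rpl22l1 the farnesol libraries lie within 127 to 140 CPM.

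The stalk proteins, which recruit elongation factors to the large subunit, all rose, with a wide spread between libraries. Rplp0, the base of the stalk, held 718, 783, 921, 782 and 742 CPM in the controls and 1046, 998, 876, 1003 and 1442 CPM with farnesol. Control 3 exceeded farnesol 3, so the groups overlapped, and the log2 fold change was 0.44 (SE 0.11). Rplp1 also overlapped, at 350 ± 38.3 against 452 ± 75 CPM and a log2 fold change of 0.37, while Rplp2 did not, at 139 ± 16.9 against 217 ± 59.4 CPM and 0.64. In the fit that takes in the length slope, the log2 fold changes of Rplp0, Rplp1 and Rplp2 were -0.14, -0.13 and -0.12, and none passed. The partners of 5S rRNA, which also bind the p53 regulator Mdm2, rose without overlap: Rpl5 from 446 ± 30.1 to 555 ± 29.0 CPM and Rpl11 from 272 ± 20.3 to 391 ± 40.0 CPM. Their log2 fold changes were 0.32 and 0.52. Rps6, the substrate of the S6 kinases, went from 600 ± 53.1 to 770 ± 32.5 CPM, a log2 fold change of 0.36. Rpsa, also known as the laminin receptor precursor, went from 864 ± 75.1 to 1167 ± 174 CPM, a log2 fold change of 0.43.

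Among the paralogs, Rpl22l1 is the alternative form of Rpl22 and is annotated at chr2:111754687-111756625 on the plus strand of rn7. It held 77.0, 81.2, 100, 95.6 and 97.3 CPM in the controls and 140, 127, 132, 130 and 137 CPM with farnesol. The groups lay well apart, with little spread among the farnesol libraries, and the log2 fold change was 0.56 (SE 0.07, adjusted p of 9.27e-05 in edgeR's test). Rpl22 itself rose by 0.48 on the log2 scale (SE 0.08); the difference between the genes of the pair was not tested. Rps27l, a p53 target in human cells, rose by 0.35 and its partner Rps27 by 0.43. Rpl7l1, a factor of large-subunit assembly, rose by 0.24, with 99.8 to 112 CPM in the controls and 119 to 130 CPM with farnesol. Rpl3l, the form of Rpl3 found in striated muscle, had at most 8 counts in any library and was not tested, while Rpl3 rose by 0.58.

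Of the 95 copies, 25 passed the filter. Of these 11 rose (44%, beside 29.3% of all tested rows), 1 fell and 13 were not called. The groups lay apart in 5 of the 25, with farnesol higher, as they did in 19.7% of all tested rows. The other 70 were not tested. The largest log2 fold change of any member was 1.26, in Rps18l5, a copy with 13 to 73 counts per library, whose controls ranged from 0.289 to 0.624 CPM and whose farnesol libraries ranged from 0.822 to 1.65 CPM. The member that fell was Rps9l2, with 4 to 21 counts per library and a change of -0.95 on the log2 scale (SE 0.39, adjusted p of 0.0484 in edgeR's test). Its groups overlapped, and the call was lost when any of 8 of the 10 libraries was left out, with adjusted p from 0.0517 to 0.119 in those fits. A few copies had levels like those of a core gene: a single-exon row named Rps12l2 on chromosome 17 of rn7 rose from 94.6 ± 16.4 to 165 ± 43.1 CPM, and the row named Rpl30 rose from 104 ± 15.8 to 131 ± 14.2 CPM. The sources used here do not say how reads that match both a copy and its parent were counted, which leaves the values of both uncertain to that extent.

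Per length, the core genes were abundant, and 17 of them were among the 100 rows with the highest control FPKM. In FPKM, which scales fragments by gene length and library total, the median of the control means was 263 for the large subunit and 263 for the small subunit, against 5.49 over all tested rows. Rps3a was highest, with 799 ± 39.2 FPKM, followed by Rpl10 with 775 ± 53.5, and these values differed by less than their spread. Rpl22 was lowest with 40.8 ± 4.30 FPKM, so the core genes covered a 19.6-fold range, and 48 of 68 lay within 2-fold of their median. The gene length behind an FPKM value is that of the annotation, which may differ from the mRNA these cells make. With farnesol the medians were 385 FPKM for the large and 383 for the small subunit.

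The members as a whole took 2.21, 2.48, 2.87, 2.54 and 2.45% of the counts in control replicates 1 to 5 and 3.49, 3.34, 3.17, 3.37 and 4.14% in the farnesol replicates. Control 3 and farnesol 3 came closest, at 2.87 and 3.17%. The summed FPKM of the small-subunit core genes was 0.778 to 0.806 of that of the large subunit in the controls and 0.735 to 0.789 with farnesol. The ranges overlapped, since farnesol 3, at 0.789, was above control 3, at 0.778.

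The spread between libraries was shared by the core genes. Control 3 was the highest control in 67 of 68 core genes and control 1 the lowest in 63. Among farnesol libraries, farnesol 5 was highest in 67 and farnesol 3 lowest in 54. Control 3 lay above the mean of the other controls in all 68 core genes, by a median of 0.26 on the log2 scale, least in Rps3a (0.07) and most in Rpl38 (0.45). Farnesol 5 lay above the mean of the other farnesol libraries in 67, by a median of 0.38, from -0.06 in Rps3a to 0.75 in Rplp2. In the 1628 other rows with at least 100 CPM, the median coefficient of variation was 5.60% in the controls and 7.81% with farnesol, against 10.4% and 13% in the core genes. With farnesol it was 15.9% in the large and 11.2% in the small subunit. Without control 3 and farnesol 5 together, an alternative chosen after seeing the data, 81 members rose, of which 80 also rose with all libraries. The copy Rpl15l3 lost its call, and Rps3a gained one, with a log2 fold change of 0.13 and an adjusted p of 0.0170 in edgeR's test.

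This order of the libraries ran with gene length. Each library was set against the average library, and its length slope is how much that log2 ratio changes per doubling of gene length, over tested rows that are not members. It was 0.167, 0.1, -0.00166, 0.0644 and 0.103 in the controls and -0.0957, -0.0604, -0.0353, -0.0608 and -0.182 with farnesol. The groups did not overlap in this slope, short genes were relatively higher in the farnesol libraries, and the library with the lowest slope, farnesol 5, had the largest share of ribosomal protein counts. The libraries fell into the treatment groups on this measure, so farnesol and the length slope cannot be told apart in this design.

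**Figure D3:**
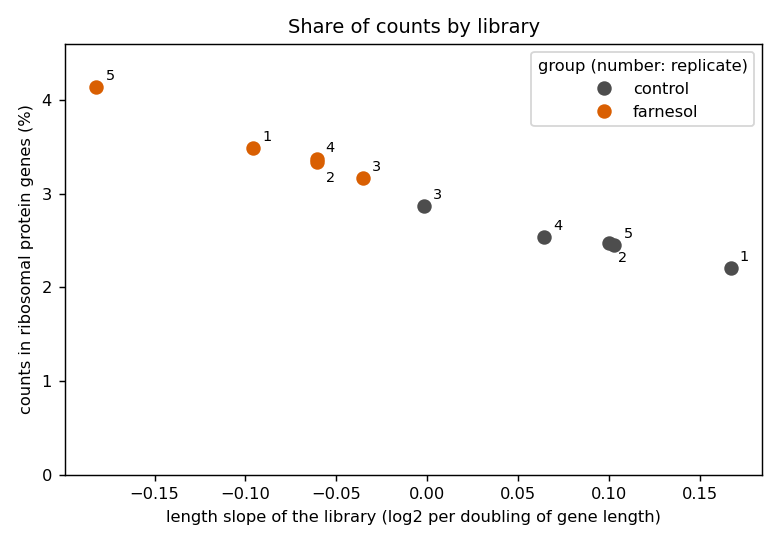
Percentage of counts in ribosomal protein genes (y axis, from 0) against the length slope of the library (x axis) in 10 libraries, numbered by replicate. The share runs from 2.21% in control 1, at a slope of 0.167, to 4.14% in farnesol 5, at a slope of -0.182, and control 3 and farnesol 3 lie side by side.

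Ribosomal protein genes are short, and short rows tended to be higher with farnesol. The tested rows were split by length into 5 classes of near equal size. In the shortest class, up to 1808 bases, the rows that are not members had a median log2 fold change of 0.27 and 44.7% of them rose; with at least 100 CPM in the controls these values were 0.24 and 59.8%. The 49 core genes of that class had a median of 0.52, and 98.0% rose. In the next class, up to 2632 bases, the median was 0.15 in other rows and 0.49 in 12 core genes, of which 12 rose. Among rows of at least 5087 bases the other rows had a median of -0.28 and 12.8% rose. The single core gene there, Rpl8, rose by 0.62. Its length of 5755 bases covers most of its span of 6159 bases and may differ from the mRNA these cells make. Rpl22, the single core gene of the fourth class, rose by 0.48 where the other rows had a median of -0.12.

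**Figure D4:**
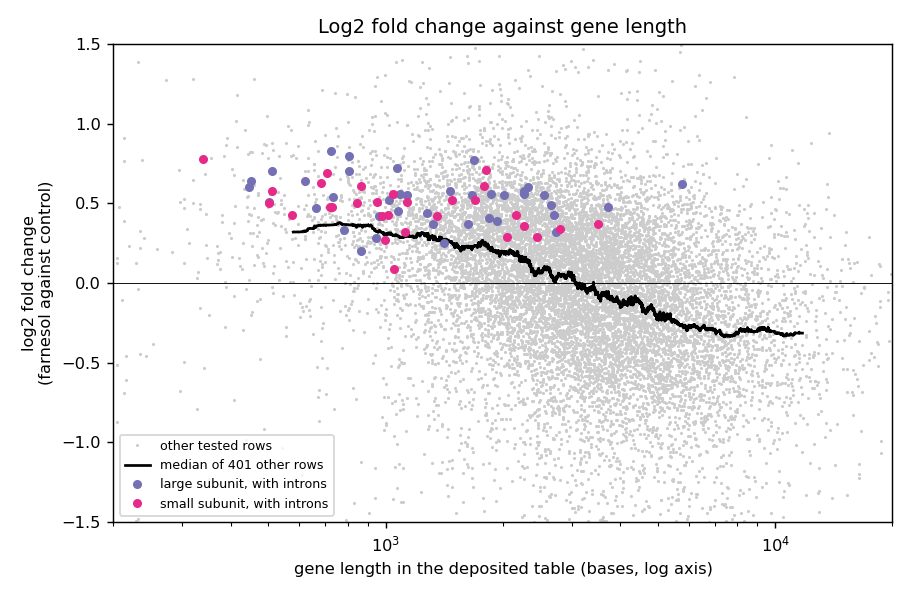
Log2 fold change (farnesol against control, y axis) against gene length (bases, log x axis) for the core genes of the large and small subunit and all other tested rows, the black line being a running median of the other rows; rows beyond the axis limits are not drawn. The line falls from above 0 in short genes to below 0 in long ones. Most core genes lie above it, and Rps3a at 0.09 and Rpl10 at 0.20 are among those under it.

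A further 3 fits took the library differences into account in different ways. When a smooth trend with gene length was removed from each library, 60 of 68 core genes rose, with a median log2 fold change of 0.33, against 32.1% of all tested rows that rose and 24.3% that fell. In that fit the medians were 0.39 for the large and 0.28 for the small subunit, and Rps3 stood at 0.47. That fit used the gene lengths of the annotation, which may differ from the mRNA these cells make. Rpl8, with a length of 5755 bases, stood at 0.89. With the main axis of spread within groups as a covariate (the first principal component of rows that are not members), 40 core genes rose with a median of 0.15, against 9.08% of all rows that rose and 12% that fell, and Rps3 stood at 0.26 (adjusted p of 1.07e-05 in edgeR's test). With the length slope as a covariate, 0 core genes rose or fell by edgeR's test, where 2.93% of all rows rose and 4.47% fell, and the median was 0.03. Rpl22l1 was the only member called in that fit, with a log2 fold change of 0.31 and an adjusted p of 0.0283 in edgeR's test. Both covariates run with the treatment, so each can also take up part of a farnesol effect.

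**Figure D5:**
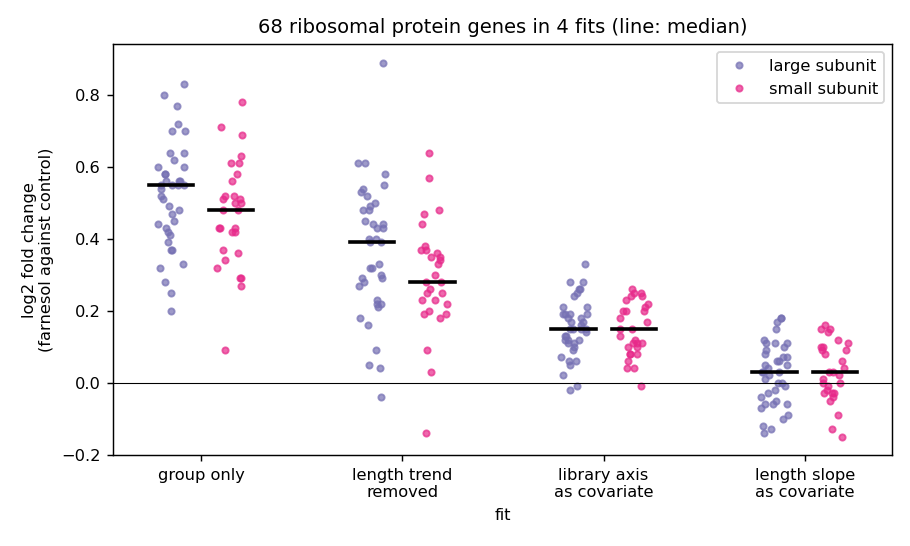
Log2 fold change (farnesol against control, y axis) of the 68 core genes in 4 fits (x axis), each point a gene and each line the median of a subunit. The medians of the large and small subunit are 0.55 and 0.48 with group alone, 0.39 and 0.28 with the length trend removed, and both 0.15 and both 0.03 with the library axis and the length slope as covariates.

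Rack1 and Fau encode ribosomal proteins under other names, and both rose. Rack1, a signalling scaffold on the head of the small subunit, rose from 402 ± 30.6 to 578 ± 51.1 CPM, a log2 fold change of 0.52, and stayed called with the length slope as a covariate, at 0.20 (adjusted p of 0.0386 in edgeR's test). Fau, a fusion of a ubiquitin-like protein and a small-subunit protein, rose by 0.67. With the length slope it did not pass, at -0.13.

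The translation factors and other genes with TOP mRNAs gave a mixed picture. Of 16 tested, 10 rose, 3 fell and 3 were not called, with a median of 0.30; 62.5% rose, beside 29.3% of all tested rows. The elongation factor subunits Eef1g and Eef1b2 rose by 0.43 and 0.44 and the initiation factor subunit Eif3k by 0.65, whereas Pabpc1, which binds poly(A) tails, stood at 0.05 and Npm1, a nucleolar chaperone, at 0.06, neither passing. Eef1a1 had at most 9 counts and was not tested. With the length slope as a covariate, 0 of the 16 rose or fell by edgeR's test, with a median of 0.06.

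Genes of the machinery that makes ribosomes were called in both directions. Of 40 assembly factors 18 rose, 8 fell and 14 did not pass, with a median of 0.11. The share that rose was 45.0%, beside 29.3% of all tested rows. Nob1, the nuclease that finishes 18S rRNA, rose by 0.50 and the rRNA methyltransferase Nop2 by 0.40, while Tsr1, a factor of the small subunit, fell by 0.80 on the log2 scale, from 51.3 ± 7.08 to 29.5 ± 6.30 CPM. Of 15 genes of RNA polymerase I transcription, which makes rRNA, 7 (46.7%) rose, 3 fell and 5 did not pass; Ubtf and Polr1d rose by 0.34 and 0.31 and Polr1f fell by 0.54. Of 11 chaperones that carry new ribosomal proteins, 6 (54.5%) rose, 2 fell and 3 did not pass, with Aamp highest among the named ones at 0.61. With the length slope as a covariate, 0 of the 40 assembly factors rose and 1 fell by edgeR's test. In that fit 0 of the 15 polymerase I genes and 0 of the 11 chaperones were called. Tsr1 then stood at -0.07, Polr1f at -0.05 and Aamp at 0.10.

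Of 16 genes that regulate mTORC1 or TOP mRNAs, 6 rose, 4 fell and 6 did not pass, with a median of 0.08. The 37.5% that rose is near the 29.3% of all tested rows. Ddit4, a stress-induced inhibitor of mTORC1, rose from 11.1 ± 0.848 to 23.1 ± 1.89 CPM, a log2 fold change of 1.05, and kept its call with the length slope as a covariate at 0.80 (adjusted p of 4.98e-05 in edgeR's test). Tsc2, another inhibitor, rose by 0.48, whereas the inhibitors Tsc1 and Deptor fell by 0.41 and 0.45. Larp1 stood at -0.05 and did not pass. Of the S6 kinase genes, Rps6kb1 fell by 0.44 and Rps6kb2 rose by 0.64. With the length slope as a covariate, Tsc2 (0.17), Tsc1 (0.06), Deptor (0.47), Rps6kb1 (-0.05) and Rps6kb2 (0.14) did not pass. In that fit 1 of the 16 rose and 0 fell by edgeR's test, where 2.93% of all tested rows rose and 4.47% fell. These are mRNA levels, and neither mTORC1 activity nor translation was measured.

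The mitochondrial ribosomal proteins, which serve the separate ribosome of that organelle, offered the nearest comparison. Of 68 tested, 57 rose, 0 fell and 11 were not called by edgeR, with a median of 0.37 against 0.51 in the core genes; this difference was not tested. None was lower at an unadjusted p under 0.05 either, and DESeq2 called 0 lower. In the shortest length class 40 of 47 rose with a median of 0.39. Mrps18b rose by 0.52, Mrps16 by 0.53 and Mrpl10 by 0.58. With the length trend removed 35 of the 68 rose, against 32.1% of all tested rows, and with the library axis as a covariate 6 did, against 9.08%. Once the length slope entered the fit, 0 rose and 1 fell by edgeR's test, with a median of 0.02.

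Markers of the cells were read beside these results. Of 9 TDSC markers 8 were tested, Tnmd being at most 1 count, and their summed level was 9986 to 10318 CPM in the controls and 8459 to 9703 CPM with farnesol. Itgb1 and Thy1 made up most of the sum, going from 4918 ± 305 to 3222 ± 291 CPM and from 4497 ± 399 to 5200 ± 773 CPM. Among the 8 tested, 1 rose and 5 fell, beside 30% of all tested rows that fell. Those that fell were Nt5e (-0.99), Scx (-0.72), Itgb1 (-0.61), Mkx (-0.46) and Cd44 (-0.44). Eng rose by 0.26, and Thy1 stood at 0.21 and did not pass. With the length slope as a covariate, Scx (-1.3), Nt5e (-0.76), Nes (-0.54), Itgb1 (-0.29) and Thy1 (-0.25) fell by edgeR's test. In that fit 4.47% of all tested rows fell, and Mkx (-0.15), Cd44 (-0.08) and Eng (-0.08) did not pass. Of 15 markers of endothelium, leukocytes, epithelium, red cells, muscle and Schwann cells, 4 were tested; the sum was 291 to 348 CPM in the controls and 447 to 529 CPM with farnesol. Of these 4, 3 rose, beside 29.3% of all tested rows. S100b, found in Schwann cells among others, made up most of the sum, at 312 ± 19.7 and 477 ± 28.5 CPM, and rose by 0.62. Cd68, a marker of macrophages, rose by 1.00, from 1.52 ± 0.540 to 3.05 ± 0.357 CPM, and the epithelial keratin gene Krt8 by 0.80, from 1.31 ± 0.430 to 2.27 ± 0.425 CPM, with overlap of the groups. Cdh5, Ptprc, Adgre1 and Krt18, which mark endothelium, leukocytes, macrophages and epithelium, were at 0 in every library. The part of these markers in the ribosomal protein result was not tested.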

How the data were processed

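The authors deposited 1 table that holds, per the file headers, a read count and an FPKM value for each gene in each library. The tools listed in the submitters' processing notes are StringTie, DESeq, HTSeq 0.9.1 and HISAT2 2.0.5, with rn7 as the build; the sources used here do not give their roles or say whether strand was used. The deposited FPKM values equal counts over gene length and library total, and gene length was taken from them. Of 23052 rows 1 repeat was removed. Library totals were 41.8 to 47.1 M counts. The floor that a count of 0 allows, 3 counts, was 0.0637 to 0.0717 CPM by library, for counting error only.

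Counts were fitted with edgeR 4.0.16 and limma 3.58.1 in R 4.3.3 (TMM, robust quasi-likelihood, group only), with p-values adjusted over 12942 rows. CPM uses TMM-scaled totals; log2 CPM has a prior count of 2. The steps were tested on simulated counts. Alternatives were DESeq2 1.42.0, other size factors and filters, limma-trend on log2(FPKM + 0.1), each library left out, a replicate block, and the length and axis fits. The chi-square of counts per gene between replicate libraries was 3.93 to 112, so none was taken for a repeat deposit.

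The members and gene lists were chosen with earlier results of these data known. Genes were named by rule: Rps3, per subunit the 4 highest and 4 lowest log2 fold changes and the 3 highest control FPKM, members not called, a set of genes of known role, paralog pairs and the 3 lowest p of each further list. Rpl4, Rpl8, Rpl15l3, Rpl30, Rpl38, Rps7, Rps24, Rps27a, Eef1a1, Pabpc1, Npm1, Larp1, Rps6kb1, Tsc1, Deptor, Thy1, Eng, Scx, Mkx, Nes and the markers at or near 0 were named beside the rule, after their values were seen. Not every gene named by the rule is reported here.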

Additional observations from a re-analysis of the deposited data

Results flagged for a closer look

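In 19 of 140 groups of 5 libraries 1 library stood far from the other 4, where chance flags about 1 in 20 groups; the genes share libraries, so these flags are not independent. In 15 of them it was farnesol replicate 5, always the highest. Its CPM was 717 for Rpl35 (the others 406 to 478), 440 for Rpl28, 474 for Rps19, 137 for Rps28, 659 for Rps20, 582 for Rplp1, 322 for Rplp2, 1469 for Rpsa, 200 for Rps27, 193 for Rps27l and 232 for Fau. Among copies it was 240 for Rps12l2 on chromosome 17, 2.80 for Rps29l5, 3.02 for Rpl36l7 and 3.05 for the single-exon Rpl36 row. In the controls, replicate 3 was high for Rpl36 (2.35), Eef1g (794) and Ddit4 (12.6), and replicate 5 for Rpl10l1 (1.03).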

How the results depend on the processing

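The 81 members that rose became 77 to 81 with any single library left out, and the 1 that fell became 0 to 1; the 7668 calls over all rows became 6894 to 7894. Adding the length slope as a covariate left 1 member that rose, 0 that fell and 957 calls over all rows; with the library axis these counts were 41, 0 and 2723. With the replicate block the counts were 78 and 0. Deviations of same-numbered libraries correlated at -0.389 to 0.0494, and no library correlated best with its own number. So no pairing by number was seen, but the labels do not say whether same-numbered libraries were handled together. The member that fell was also lost with DESeq2 (0), without a filter on low counts (0) and without control 3 and farnesol 5 (0), the last added after seeing the data. Log2 fold changes below 0 were seen in 26 of 68 core genes with the length slope, 3 with the axis and 2 with the length trend removed. Some reported genes that were called with group alone changed sign in these fits. With the length slope, those named by rule were Rpl29 (-0.06), Rpl10 (-0.01), Rplp0 (-0.14), Rplp1 (-0.13), Rplp2 (-0.12) and Rpsa (-0.03). Also among them were Rps27 (-0.04), Rps12l2 on chromosome 17 (-0.00), Fau (-0.13) and Krt8 (-0.01). Those named beside the rule were Rpl30 (-0.17), Rpl38 (-0.06), Rps24 (-0.0), Rps27a (-0.03), Eng (-0.08), Tsc1 (0.06) and Deptor (0.47). With the axis, Rplp0 (-0.01), Rplp1 (-0.02), Rpl30 (-0.0), Eng (-0.0) and Deptor (0.25) changed sign, and with the length trend removed Rpl10 (-0.04). The cause was not tested. Depth limits the copies, many of which have few counts.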
